A study of Mus musculus with 67 samples.

Results

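Tuft cells are rare chemosensory cells of the intestinal epithelium. This report describes 10 genes that mark them or act in them, namely Dclk1, Trpm5, Pou2f3, Il25, Gfi1b, Avil, Sh2d6, Alox5, Ptgs1 and Il17rb. All 10 are among the 29579 genes listed. RNA of mouse small intestinal organoids and of isolated crypts was sequenced in bulk, in 67 libraries, 49 of organoids in 10 media and 18 of crypts in 9 groups. The study asked how a medium of 8 components, 8C, and the removal of its parts change organoids, and whether a pair of its inhibitors acts on crypts after irradiation.

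The organoids came from the proximal small intestine of C57BL/6 or Lgr5-EGFP-IRES-creERT2 mice aged 6 to 12 weeks. The 8C medium (7 libraries) held 500 µM VPA (valproic acid, which inhibits histone deacetylases), 2 µM EPZ6438 (against the methyltransferase EZH2), 0.2 µM LDN193189 (an inhibitor of BMP receptors), 0.1 µM GSK3iXV (an inhibitor of the kinase GSK3), 1 µM Pexmetinib (an inhibitor of p38 and Tie2), bFGF at 20 ng/mL, EGF at 50 ng/mL and conditioned medium of R-Spondin 1 at 10%. The conventional medium, ENR (7 libraries), had EGF at 50, noggin at 100 and R-Spondin 1 at 500 ng/mL, and ENR+VE (3 libraries) contained these 2 inhibitors too, with no dose stated in the labels. The media 8C-V (6 libraries) and 8C-E (7 libraries) were 8C without VPA and without EPZ6438, and 8C-VE (7 libraries) was 8C without both. The media 8C-GSK3i, 8C-Pex, 8C-bFGF and 8C-EGF (3 libraries each) were 8C without the component named. Crypts came from untreated mice (Normal) and from 8-week-old mice at 1, 2, 3 or 5 days after 12 Gy of irradiation, without (IR) or with (IR+VE) daily VPA at 40 mg/kg and EPZ6438 at 0.6 mg/kg, with 2 libraries in each group. The labels do not say whether replicates are separate cultures or animals, and the study's legends count mice without saying which libraries they gave, so p-values measure the spread between these libraries.

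Tuft cells sense luminal metabolites and parasites through a taste-like cascade that ends in the cation channel TRPM5. They secrete the cytokine IL-25, which acts on innate lymphoid cells, and lipid mediators made by the enzymes ALOX5 and PTGS1. The POU-domain factor POU2F3 is required for their formation. In bulk RNA, fewer tuft cells and less RNA per tuft cell cannot be told apart.

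Because POU2F3 binds octamer sequences, the promoter windows of the genes were searched for 3 motifs on both strands, of which the second (N is any base) includes the first. The windows, from 250 bases before to 50 after a RefSeq start site (GRCm38.p6), were found for 8 of the 10 genes, with 9 windows in all since Dclk1 has 2. The octamer ATGCAAAT was in 0 of the 9 windows and in 1.74% of all 32851 windows, and ATGNAAAT was in 0 of the 9 and in 5.67% of all. The 7-base ATGCAAA, which is a part of the octamer and was added after the first result was seen, was in 1 of the 9 windows and in 4.63% of all. The 250 bases before the start of the 3 genes called lower in 8C than in ENR follow, with ATGCAAA or its reverse complement TTTGCAT in capitals.
Avil, chr10:127000459-127000708, + strand: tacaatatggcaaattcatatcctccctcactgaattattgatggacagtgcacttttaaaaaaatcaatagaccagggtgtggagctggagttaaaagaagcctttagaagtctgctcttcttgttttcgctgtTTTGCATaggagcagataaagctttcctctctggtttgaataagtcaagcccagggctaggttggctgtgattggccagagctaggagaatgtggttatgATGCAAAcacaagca
Trpm5, chr7:143094643-143094892, - strand: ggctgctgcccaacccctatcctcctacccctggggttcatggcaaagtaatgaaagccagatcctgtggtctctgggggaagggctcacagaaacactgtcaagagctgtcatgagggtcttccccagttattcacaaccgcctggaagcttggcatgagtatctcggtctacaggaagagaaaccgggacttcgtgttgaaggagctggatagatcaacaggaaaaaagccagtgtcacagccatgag
Sh2d6, chr6:72520037-72520286, - strand: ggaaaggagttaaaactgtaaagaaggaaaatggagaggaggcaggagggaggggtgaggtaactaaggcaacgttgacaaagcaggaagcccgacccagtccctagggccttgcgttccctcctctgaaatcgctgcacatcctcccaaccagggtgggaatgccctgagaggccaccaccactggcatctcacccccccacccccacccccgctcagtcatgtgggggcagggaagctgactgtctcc
Capitals are seen in the Avil window alone, at 2 places. A match is a description of the letters and not of binding.

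In GRCm38 with GENCODE annotation, the protein-coding genes lie at chr3:55242364-55539068 (Dclk1, + strand), chr7:143069153-143094642 (Trpm5, - strand), chr9:43123939-43210369 (Pou2f3, - strand), chr10:127000709-127020994 (Avil, + strand) and chr6:72513641-72521707 (Sh2d6, - strand). The RefSeq start of Sh2d6 lies inside this GENCODE gene.

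The organoid libraries summed to 983801 to 988144 TPM and the crypt libraries to 819346 to 910935 TPM over the genes listed, and mitochondrial genes took 1.52% to 6.64% of organoid and 10.6% to 48.4% of crypt totals. The 2 sets were therefore not compared by level. TPM keeps no read number, so depth is unknown and no counting interval is given. The libraries numbered 7 of ENR, 8C-VE, 8C and 8C-E held 46288, 54058, 62274 and 65551 TPM of mitochondrial genes, where no other organoid library exceeded 37580 TPM. Without these 4 libraries, an alternative chosen after the data were seen, the member calls described for organoids changed in 3 cases: Trpm5 in 8C against ENR was at -0.99 and so under 2-fold, Ptgs1 in 8C-Pex had a limma adjusted p of 0.0538, and Sh2d6 in 8C-E against 8C-VE lay under the minimum level. The median correlation of a library with the others of its group was 0.9785 to 0.9966 in organoids and 0.9799 to 0.9935 in crypts. The library kit does not keep the strand, and exons of Trpm5, Avil and Il17rb overlap those of Tssc4, Tsfm and Actr8 on the opposite strand by 220, 165 and 141 bases. Those of Dclk1 overlap Gm42609 and Gm21954 by 114 bases together, and those of Ptgs1 overlap Gm43621 by 148 bases. Reads from there cannot be told apart.

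The first comparison asked how the members differ between 8C and ENR. Trpm5, Avil and Sh2d6 were lower in 8C, and the transcription factor gene Pou2f3 and the receptor gene Il17rb did not pass the test. Trpm5 was at 2.72 to 7.80 TPM in ENR (median 3.66, mean 4.31 ± 1.75 SD, n = 7) and at 1.03 to 1.60 TPM in 8C (median 1.46, mean 1.37 ± 0.224 SD, n = 7). Avil, which encodes the actin-binding protein advillin, was at 3.49 to 9.84 TPM in ENR (median 4.51, mean 5.73 ± 2.41) and at 1.09 to 1.66 TPM in 8C (median 1.45, mean 1.37 ± 0.215). Sh2d6, which encodes an adaptor protein, was at 0.547 to 13.4 TPM in ENR (median 2.98, mean 3.94 ± 4.30) and at 0 to 0.370 TPM in 8C (median 0.131, mean 0.131 ± 0.148). The ENR and 8C libraries did not overlap for any of these 3 genes. Genes with no overlap and a lower level in 8C made up 3.37% of those tested.

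Expression was tested with limma on log2(TPM + 1), a scale on which differences of weak genes shrink, for genes that averaged 1 TPM or more in the compared libraries (in crypts, in all 18). A call needed 2-fold or more and a Benjamini-Hochberg adjusted p below 0.05. Trpm5 fell by 1.11 ± 0.18 (SE, log2), Avil by 1.44 ± 0.19 and Sh2d6 by 1.80 ± 0.35, with limma adjusted p of 1.04e-04, 1.92e-05 and 6.23e-04. These 3 of the 5 members that reached the minimum were called, and 3.31% of all genes tested were called lower. Sh2d6 reached the minimum only through the group in which it is high, so it had to differ. Trpm5 is no longer called without ENR replicate 7 (-0.98, under 2-fold), and with replicate numbers 1 to 3 alone the change was -0.81 (limma adjusted p = 0.00827).

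The regulators and the receptor did not pass the test or lay below the minimum. Pou2f3 was at 3.59 to 9.0 TPM in ENR (median 7.14, mean 6.46 ± 1.89) and at 4.21 to 10.7 TPM in 8C (median 6.70, mean 7.25 ± 2.50), a difference of 0.13 ± 0.22 (limma adjusted p = 0.688). Il17rb, which encodes the IL-25-binding receptor chain, was at 1.63 to 5.66 TPM in ENR (mean 3.30 ± 1.39) and at 1.65 to 6.25 TPM in 8C (mean 3.80 ± 1.41), a difference of 0.17 ± 0.23 (adjusted p = 0.640 with limma). The direction of Il17rb depended on the libraries, at -0.40 in replicate numbers 1 to 3 and 0.75, under 2-fold, in numbers 4 to 6 (limma adjusted p of 0.212 and 0.00539). Both genes overlapped between the media. Gfi1b, a transcriptional repressor gene, reached 1.27 TPM at most in organoids. Il25 was listed at 0 in 35 of 49 organoid libraries and reached 0.786 TPM at most, so it gives no fold change here.

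Members below the minimum were put to two-sided exact permutation tests on log2(TPM + 1), 20 of them over several comparisons, whose p-values are not adjusted for their number. Dclk1, a kinase gene widely used as a tuft cell marker, was at 0.639 to 3.41 TPM in ENR (median 0.866, mean 1.32 ± 0.977) and at 0.0957 to 0.215 TPM in 8C (median 0.182, mean 0.158 ± 0.0505). The media did not overlap, and the exact permutation p was 5.83e-04, the smallest that 7 against 7 libraries allow. Alox5, the gene of 5-lipoxygenase, which starts leukotriene synthesis, was at 0.183 to 0.858 TPM in ENR (median 0.490) and at 0.0521 to 0.598 TPM in 8C (median 0.123), with an exact permutation p of 0.0175. Ptgs1, the gene of cyclooxygenase 1, was at 0.148 to 2.34 TPM in ENR (median 0.435) and at 0.389 to 1.70 TPM in 8C (median 0.716), with an exact permutation p of 0.418. Alox5 and Ptgs1 overlapped between the media.

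**Figure D1:**
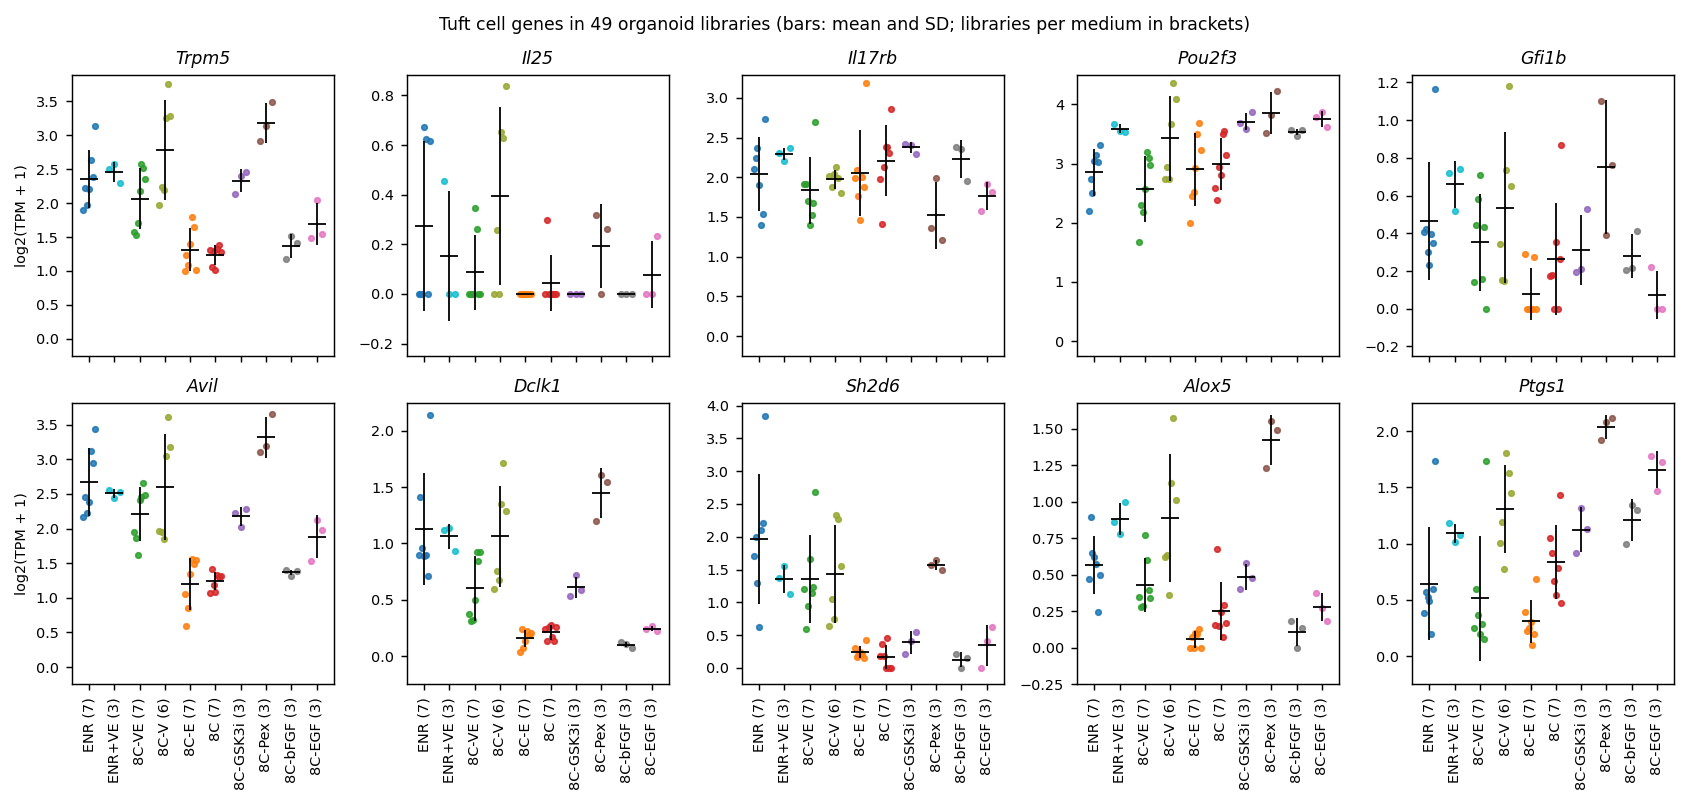
Level of each of the 10 tuft cell genes on the log2(TPM + 1) scale in the 10 organoid media. Points are libraries and bars are the mean and SD. Trpm5, Avil, Dclk1 and Sh2d6 sit low in 8C and 8C-E and Pou2f3 does not.

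The next comparisons asked which of VPA and EPZ6438 goes with these levels. Among 8C, 8C-E, 8C-V and 8C-VE, the levels of Trpm5, Avil, Dclk1 and Sh2d6 were low in both media with VPA (8C and 8C-E) and higher in both without. Other media that held VPA were not all low, with mean Trpm5 at 8.19 TPM in 8C-Pex, 4.50 in ENR+VE, 4.05 in 8C-GSK3i, 2.29 in 8C-EGF and 1.60 in 8C-bFGF. In 8C-VE, Trpm5 was at 1.89 to 4.96 TPM (median 3.53, mean 3.35 ± 1.30), in 8C-V at 2.91 to 12.5 TPM (median 6.13, mean 6.65 ± 3.85), and in 8C-E at 0.991 to 2.46 TPM (median 1.37, mean 1.53 ± 0.577). Avil was at 2.07 to 5.30 TPM in 8C-VE (median 4.34, mean 3.75 ± 1.21), at 2.59 to 11.2 TPM in 8C-V (median 5.06, mean 5.81 ± 3.59) and at 0.502 to 1.93 TPM in 8C-E (median 1.54, mean 1.37 ± 0.574). Trpm5 and Avil of 8C-V did not overlap with those of 8C. Genes with no overlap that were higher in 8C-V than in 8C made up 1.63%.

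Removing VPA from 8C raised Trpm5 by 1.54 ± 0.27, Avil by 1.36 ± 0.28 and Sh2d6 by 1.26 ± 0.28 (log2, limma adjusted p of 0.00114, 0.00389 and 0.00664). These were 3 of 6 members tested, and 1.11% of all genes were called higher. Sh2d6 again reached the minimum through its high group, and it lay under the minimum when 8C-V replicate 2, 4, 5 or 6 was left out, which leaves 2 calls. In replicate numbers 1 to 3 alone, Trpm5 differed by 0.91 (adjusted p = 0.018, limma) and Avil by 0.70 (adjusted p = 0.042, limma), both less than 2-fold. Removing EPZ6438 from 8C gave no call among the 4 members tested, with Trpm5 at 0.07 ± 0.16, Avil at -0.04 ± 0.18, Pou2f3 at -0.08 ± 0.27 and Il17rb at -0.15 ± 0.25 (limma adjusted p of 0.911, 0.964, 0.945 and 0.877). Of all genes, 4.2% were called in that comparison and 0 of the 4 members tested were (0 of 4, and 14.7% of all genes, at an unadjusted p under 0.05). Of the members too low for this fit, Ptgs1 had a mean of 0.248 TPM in 8C-E and 0.83 TPM in 8C, and without the minimum level it differed by -0.53 (limma adjusted p = 0.0459), less than 2-fold. In the same fit, Alox5 (-0.19), Gfi1b (-0.18), Dclk1 (-0.05) and Sh2d6 (0.07) had limma adjusted p of 0.212 to 0.739.

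Adding VPA alone to the medium without both (8C-E against 8C-VE) lowered Avil by 1.00 ± 0.20 and Sh2d6 by 1.11 ± 0.25 (limma adjusted p of 0.00367 and 0.00724). These are 2 of 5 members tested, and 1.07% of all genes were called lower. Sh2d6 was at 0.506 to 5.41 TPM in 8C-VE (median 1.29) and at 0.110 to 0.340 TPM in 8C-E (median 0.165), with no overlap (genes lower with no overlap made up 0.932%), and it reached the minimum only through 8C-VE, and not when 8C-VE replicate 1, 4, 5, 6 or 7 was left out. Trpm5 differed by -0.75 ± 0.21 (limma adjusted p = 0.026), less than 2-fold. Avil lies at the fold threshold and its call is lost in 8 of 24 alternatives, 7 of which leave out 1 library (8C-E replicate 1, 2 or 3 or 8C-VE replicate 4, 5, 6 or 7) and give -0.90 to -0.98.

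Adding EPZ6438 alone (8C-V against 8C-VE) gave no member called of 6 tested, where 3.22% of all genes were called (at an unadjusted p under 0.05, 3 of 6 and 14.1% of all genes). Trpm5 differed by 0.72 ± 0.31, Pou2f3 by 0.86 ± 0.32 and Ptgs1 by 0.79 ± 0.26 (limma adjusted p of 0.283, 0.192 and 0.106). In this comparison same-numbered libraries deviate together, and with the replicate number as a block the values were 0.77, 0.92 and 1.00 (limma adjusted p of 8.1e-04, 7.5e-05 and 0.0021), all under 2-fold. In 8C-V, the 3 libraries numbered 4 to 6 averaged 9.91 TPM of Trpm5 against 3.39 TPM in those numbered 1 to 3, and 15.8 against 6.02 TPM of Pou2f3. In the numbers 4 to 6 alone, Trpm5, Pou2f3 and Ptgs1 were called, at 1.01, 1.09 and 1.41. Ptgs1 reached the minimum only through 8C-V, with means of 1.55 TPM there and 0.543 TPM in 8C-VE.

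Adding both inhibitors (8C against 8C-VE) moved Trpm5 by -0.83 ± 0.19 and Avil by -0.97 ± 0.17 (limma adjusted p of 0.00349 and 4.42e-04), without overlap of the libraries but under 2-fold, so that 0 of 4 members were called where 10.7% of all genes were (at an unadjusted p under 0.05, 2 of 4 and 34.2%). Genes lower with no overlap made up 1.79%. In replicate numbers 1 to 3 alone, Trpm5 differed by -0.38 and Avil by -0.59 (limma adjusted p of 0.121 and 0.0473), and in numbers 4 to 6 both were called, at -1.18 and -1.27. Dclk1 and Sh2d6, too low to be tested in that fit, did not overlap either, with exact permutation p of 5.83e-04 each. The interaction of VPA and EPZ6438 was not called for any of 5 members tested, where 0.581% of all genes were, and at an unadjusted p under 0.05 it was 1 of 5 members and 3.81% of genes (Trpm5 -0.79 ± 0.34, limma adjusted p = 0.989). Without either inhibitor, 8C-VE did not differ by the test from ENR in any of 5 members, where 3.19% of all genes were called (at an unadjusted p under 0.05, 0 of 5 and 22.4%). Trpm5 there was at -0.29 ± 0.22 (limma adjusted p = 0.521) and Avil at -0.47 ± 0.23 (limma adjusted p = 0.238, and 0.034 with the replicate block). Dclk1, below the minimum there, averaged 0.543 TPM in 8C-VE and 1.32 TPM in ENR, with an unadjusted exact permutation p of 0.0192.

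**Figure D2:**
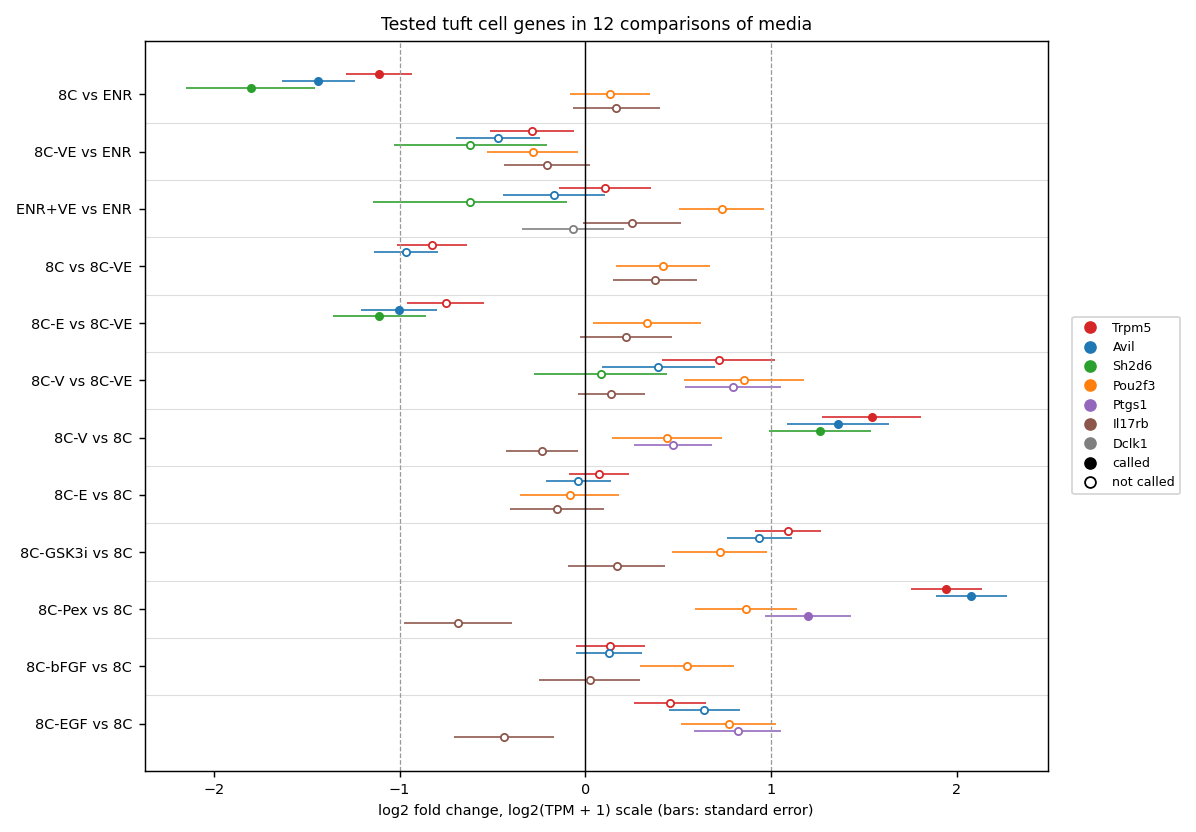
Log2 fold changes of the members tested by limma in 12 comparisons of media, on the log2(TPM + 1) scale with the standard error as bars. Filled points are called at an adjusted p under 0.05 and at least 2-fold (dashed lines). The filled points lie to the left for 8C against ENR and 8C-E against 8C-VE, and to the right for 8C-V and 8C-Pex against 8C.

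Adding both inhibitors to ENR gave no called change in the members with all 7 ENR libraries. In ENR+VE, Trpm5 was at 4.66, 4.96 and 3.89 TPM and Avil at 4.88, 4.41 and 4.78 TPM, inside the range of ENR. The top of that range is ENR replicate 7 (7.80 and 9.84 TPM). The ENR libraries numbered 1 to 3 had Trpm5 at 2.72 to 3.66 TPM, below every ENR+VE library, and Avil at 3.49 to 4.51 TPM. Against those alone, and with the replicate block, Avil differed by 0.22 and a member was called. Over all 7 ENR libraries, Trpm5 differed by 0.10 ± 0.25 and Avil by -0.17 ± 0.27 (limma adjusted p of 0.836 and 0.752). Pou2f3 was at 11.8, 10.7 and 10.6 TPM, above all 7 ENR libraries, a difference of 0.73 ± 0.23 (limma adjusted p = 0.0424) that is under 2-fold. Alox5, below the minimum, averaged 0.846 TPM in ENR+VE and 0.491 TPM in ENR, with an unadjusted exact permutation p of 0.0417. None of 6 members tested was called, where 8.87% of all genes were (at an unadjusted p under 0.05, 1 of 6 and 31.3%), and 19.6% of genes were higher with no overlap. The interaction of medium and inhibitors was -0.93 ± 0.31 for Trpm5 and -0.80 ± 0.31 for Avil (limma adjusted p of 0.291 and 0.499, with 0.58% of all genes called and, at an unadjusted p under 0.05, 2 of 5 members and 6.44% of genes), so that the difference between media did not pass this test. With the replicate number as a block, 2 members were called, so the outcome depends on the fit.

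The last comparisons of organoids removed 1 further component from 8C. Omission of Pexmetinib gave the highest mean levels of Trpm5, Avil, Dclk1, Alox5, Gfi1b, Pou2f3 and Ptgs1 among the 10 media. The 8C-V libraries numbered 4 to 6 had a higher mean than 8C-Pex in Trpm5 (9.91 against 8.19 TPM), Pou2f3 (15.8 against 13.8 TPM), Gfi1b (0.834 against 0.718 TPM) and Dclk1 (1.752 against 1.747 TPM). For these genes the rank rests on which libraries are averaged. In 8C-Pex, Trpm5 was at 6.53, 7.82 and 10.2 TPM and Avil at 7.58, 8.12 and 11.6 TPM. All 3 libraries were above the 7 of 8C for both genes, as for 2.54% of all genes. Trpm5 rose by 1.94 ± 0.19 and Avil by 2.08 ± 0.19 (limma adjusted p of 5.28e-04 and 2.91e-04), and both were called in all 20 alternatives run.

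Ptgs1, at 2.77, 3.22 and 3.32 TPM, rose by 1.20 ± 0.23 (limma adjusted p = 0.0432), a call lost in 12 of 20 alternatives, among them the omission of any 8C-Pex library or of any 8C library but replicate 6 (limma adjusted p of 0.0538 to 0.274). With Trpm5 and Avil this made 3 of 5 members tested, where 0.334% of all genes were called higher. Ptgs1 reached the minimum only through 8C-Pex, since its mean in 8C was 0.83 TPM. Pou2f3 was at 10.5, 13.1 and 17.7 TPM, overlapping with 8C, and differed by 0.87 ± 0.27 (limma adjusted p = 0.212). Il17rb, at 1.56, 2.99 and 1.31 TPM, differed by -0.69 ± 0.29 (limma adjusted p = 0.344). Without the minimum level, Dclk1 at 1.29, 2.04 and 1.91 TPM (1.24, limma adjusted p = 0.00125), Sh2d6 at 1.97, 2.13 and 1.83 TPM (1.40, limma adjusted p = 0.00125) and Alox5 at 1.34, 1.94 and 1.80 TPM (1.17, limma adjusted p = 0.00780) were called too.

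Omission of GSK3iXV gave Trpm5 at 3.40, 4.25 and 4.51 TPM, Avil at 3.67, 3.07 and 3.86 TPM and Pou2f3 at 11.8, 11.0 and 13.6 TPM. These libraries lie above all of 8C. The differences of 1.09 ± 0.18, 0.94 ± 0.17 and 0.72 ± 0.26 had limma adjusted p of 0.152, 0.187 and 0.752. No gene of 12806 was called in this comparison (at an unadjusted p under 0.05, 3 of 4 members and 6.53% of all genes), so 0% of all genes and 0 of 4 members were, and 1.3% of genes were higher with no overlap.

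Omission of EGF gave Pou2f3 at 12.8, 13.7 and 11.2 TPM and Ptgs1 at 2.44, 1.77 and 2.30 TPM. These 2 members, Trpm5 (1.81 TPM or more) and Avil (1.89 TPM or more) lay above all 8C libraries. Ptgs1 reached the minimum only through 8C-EGF, with a mean of 2.17 TPM there and 0.83 TPM in 8C, and so had to differ. The differences of 0.77 ± 0.26 and 0.82 ± 0.23 did not pass (limma adjusted p of 0.236 and 0.164), nor did those of Trpm5 (0.46 ± 0.19) and Avil (0.64 ± 0.19, limma adjusted p = 0.183). None of 5 members was called, where 0.451% of all genes were (at an unadjusted p under 0.05, 4 of 5, Ptgs1 among them, and 12.7%), and 5.28% were higher with no overlap. Omission of bFGF left Trpm5 at 1.26, 1.87 and 1.67 TPM and Avil at a mean of 1.58 ± 0.0726 TPM, and 0 of 4 members were called where 0.00779% of genes were (at an unadjusted p under 0.05, 0 of 4 and 5.56%). These 4 comparisons share the 8C libraries, so their values are not independent of each other.

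The 10 media were ordered by each gene's mean. Trpm5 ran from 8C-Pex at 8.19 TPM through 8C-V (6.65), ENR+VE (4.50), ENR (4.31), 8C-GSK3i (4.05), 8C-VE (3.35), 8C-EGF (2.29), 8C-bFGF (1.60) and 8C-E (1.53) to 8C (1.37). Neighbours in this order overlapped at every step. The order of Dclk1 has 2 steps without overlap, from ENR+VE to 8C-VE and from 8C-GSK3i to 8C-EGF, and those of Ptgs1 (from 8C-Pex to 8C-EGF), Avil (from 8C-EGF to 8C-bFGF) and Sh2d6 (from ENR+VE to 8C-GSK3i) have 1 each.

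The members did not vary as 1 group. Over the 49 libraries, Pearson correlations on the log2(TPM + 1) scale, which share media and libraries and so carry no test, were 0.943 for Trpm5 with Avil and 0.905 for Dclk1 with Trpm5. For Trpm5 with Pou2f3 the value was 0.524, and it was 0.826 after centring on the medium means. For Trpm5 with Il17rb it was -0.198.

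Within a library, Trpm5 lay below Pou2f3 by 0.50 on average in ENR (-0.84 to -0.18, log2 of TPM + 1) and by 1.75 in 8C (-2.18 to -1.28). The difference was -0.51 in 8C-VE, -0.65 in 8C-V, -0.67 in 8C-Pex, -1.59 in 8C-E, -2.06 in 8C-EGF and -2.16 in 8C-bFGF. It was -1.38 in 8C-GSK3i and -1.13 in ENR+VE, so the 5 media that held both VPA and Pexmetinib had the lowest values. Trpm5 and Avil stayed within -0.33 to 0.18 of each other in every medium's mean.

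**Figure D3:**
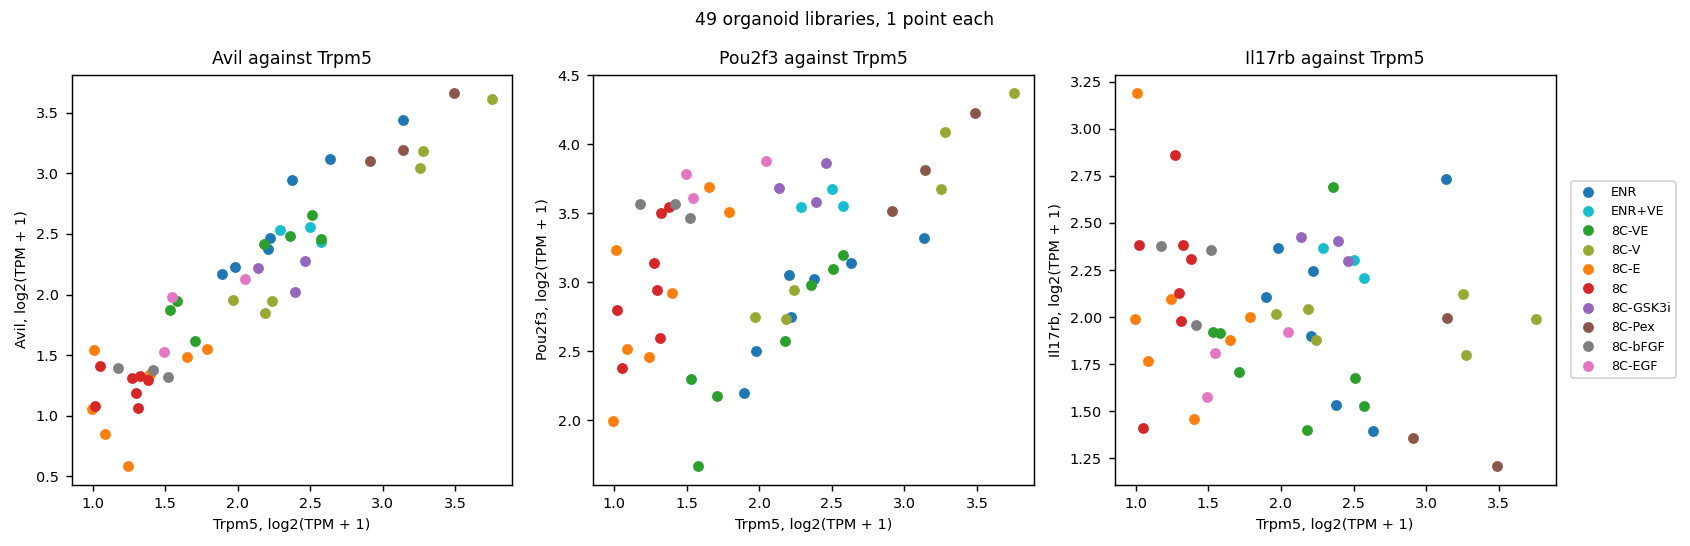
Avil, Pou2f3 and Il17rb against Trpm5 on the log2(TPM + 1) scale in 49 organoid libraries, 1 point each, coloured by medium. Avil follows Trpm5 along 1 line (0.943), whereas Pou2f3 has points of 8C, 8C-E, 8C-bFGF and 8C-EGF at high Pou2f3 and low Trpm5.

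Among 12619 other genes, the 10 whose pattern over the 49 libraries was most like the mean of 6 members that reached 1 TPM included Vav1 (Pearson r = 0.850), Spib (0.839), Pik3r5 (0.835), Rgs13 (0.811), Sh2d7 (0.802), Lrmp (0.792), Alox5ap (0.777) and Baiap3 (0.767). The median over all of them was -0.11. With Spearman's rho, 9 of these 10 remained in the first 10, and after centring on media 1 did.

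Further genes linked to tuft cells (49, in 6 lists) were read beside the members. In 8C against ENR 7 of 30 tested were called higher and 9 lower, where 11.9% and 3.31% of all genes were, with 1810046K07Rik (-2.47), Rgs13 (-1.99), Il33 (1.88) and Sh2d7 (-1.84) among the 5 largest changes. In 8C-Pex, 10 of 32 were called higher and 0 lower (0.334% and 0.148% of all genes), with Sh2d7 (2.51), Lrmp (2.47), Spib (2.44) and Rgs13 (2.21) among them. In 8C-V against 8C, 8 of 30 were called higher and 1 lower (1.11% and 4.09% of all genes), with Lrmp (2.04), Spib (1.70), Rgs13 (1.67), Gnat3, the taste G protein gene (1.60), and 1810046K07Rik (1.40) first. In 8C against ENR calls went both ways within a list too, with 2 higher and 3 lower among 7 kinase and adaptor genes tested and 1 higher and 3 lower among 6 transcription genes. Sh2d7, Lrmp, Spib, Rgs13 and Gnat3 lay under the minimum in 8C-E against 8C, and 1810046K07Rik averaged 0.929 TPM in 8C. These genes were tested above largely through the group in which they are high, and a gene that passes so had to differ. The counts above are therefore not read as support.

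**Figure D4:**
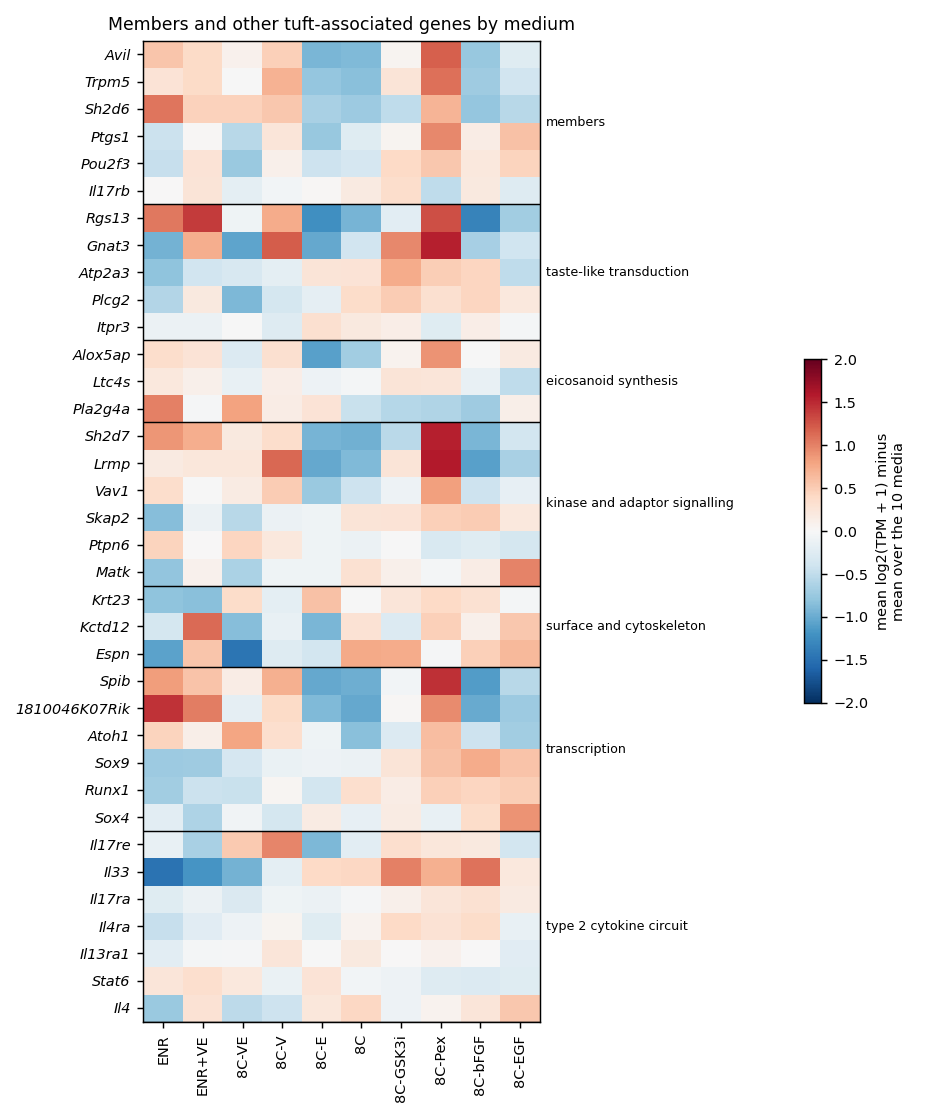
Mean log2(TPM + 1) of the 6 members and other tuft-associated genes in each medium, minus the mean over the 10 media (red above, blue below). Trpm5, Avil, Rgs13, Sh2d7, Lrmp and Spib are blue in 8C and 8C-E and red in 8C-Pex. Other genes differ from this, with Atp2a3, Itpr3 and Il33 above the mean in 8C and 8C-E, and Itpr3 and Pla2g4a below it in 8C-Pex.

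Genes of goblet and Paneth cells moved in the same comparisons. In 8C against ENR, 5 of 7 goblet cell genes and 2 of 4 Paneth cell genes tested were called lower (3.31% of all genes). In 8C-V against 8C, 3 of 7 goblet cell and 4 of 4 Paneth cell genes were called higher (1.11% of all genes), and in 8C-Pex 2 of 7 and 2 of 4 were (0.334%). Enteroendocrine cells are secretory too, and some of their genes changed where no member was called. Removing EPZ6438 from 8C lowered Chga (-2.96), Chgb (-1.26), Tac1 (-1.33), Sct (-1.54) and Sst (-4.77), all called, where 4.2% of all genes were. Gip, Neurod1, Neurog3 and Scg2 were not called there. The part of these cells in the members' values was not tested. Markers of leukocytes summed to 0.615 to 4.56 TPM over 10 genes in organoids, with Ptprc at 0 in 26 of 49 libraries and at most 0.129 TPM. Cpa3, Fcer1a and Ms4a2 of mast cells were at 0 in all 49.

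In crypts, the members were low. Of 10 genes, 4 reached a mean of 1 TPM over the 18 libraries, namely Trpm5, Avil, Sh2d6 and Alox5. Here the median of all genes moved with the treatment, by -1.03 in IR_d3 and 0.27 in IR_d5 against Normal and by 0.69 in IR+VE_d3 against IR_d3, so each change is read beside that median. Markers of leukocytes summed to 4.80 to 158 TPM and those of mast cells to 0.0820 to 77.5 TPM in crypts, with the highest libraries in Normal, and mast cells express Alox5 and Ptgs1 too. Their part in the values of these genes was not tested. The libraries of IR_d3 held 396907 and 319415 TPM of mitochondrial genes and 8152 and 8564 genes above 1 TPM.

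Trpm5 was at 1.51 and 1.23 TPM in Normal, at 0.302 and 0.552 TPM in IR_d3 and at 1.83 and 2.21 TPM in IR+VE_d3. Avil was at 0.548 and 1.75 TPM in Normal, at 0.969 and 1.48 TPM in IR_d3, at 5.23 and 5.10 TPM in IR+VE_d3, and at 3.84 and 7.28 TPM in IR_d5. Sh2d6 was at 1.67 and 2.42 TPM in Normal, at 0.125 and 0.0237 TPM in IR_d3 and at 0 and 0.0464 TPM in IR_d5. Alox5 was at 0.874 and 1.03 TPM in Normal, at 1.04 and 1.96 TPM in IR_d3, at 2.81 and 1.90 TPM in IR+VE_d3 and at 0.178 and 0.217 TPM in IR_d5. The 2 libraries of IR+VE_d3 lie above those of IR_d3 for Trpm5 and Avil, and Sh2d6 lies lower in IR_d3 and IR_d5 than in Normal, with no overlap. Of all genes, 71.1% lay higher in IR+VE_d3 than in IR_d3 with no overlap, and 79.3% and 18.2% lay lower in IR_d3 and IR_d5 than in Normal. Avil lay higher in IR_d5 than in Normal, as did 48.2%.

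No member was called at day 1 or day 2 after irradiation, where 6.92% and 30.8% of all genes were (at an unadjusted p under 0.05, 0 of 4 members on both days and 32.9% and 60% of genes). Against Normal, Sh2d6 fell by 1.49 ± 0.44 in IR_d3 and by 1.56 ± 0.44 in IR_d5 (limma adjusted p of 0.0074 and 0.0183). Sh2d6 reached the minimum only through the groups in which it is high, Normal, IR_d1 and the IR+VE groups of days 1 and 2, and a gene that passes so had to differ. Trpm5 differed by -0.74 ± 0.28 in IR_d3 (limma adjusted p = 0.0292), less than 2-fold and less than the median of all genes there, and by 0.13 with quantile normalization. Avil rose by 1.62 ± 0.38 in IR_d5 (limma adjusted p = 0.00572). Of all genes, 51.3% were called lower in IR_d3, 5.61% lower and 10.2% higher in IR_d5. One member of 4 was called in IR_d3 and 2 of 4 in IR_d5. Genes of other cells were called too, among them Chgb (-2.47), Clca1 (-2.60) and Mptx2 (-1.74) in IR_d3. In IR_d5 these included Chga (-2.53), Cd52 (-4.60), Mptx2 (-1.76) and Agr2 (1.12), and Mmp7 was called higher on both days (1.69 and 1.15). Their part in the members' values was not tested. Alox5 differed by 0.33 ± 0.26 in IR_d3 and by -0.70 ± 0.26 in IR_d5 (limma adjusted p of 0.254 and 0.0571). With quantile normalization, Alox5 and Avil were instead called higher in IR_d3 (1.41 and 1.21, limma adjusted p of 3.82e-04 and 0.0132), and with a pseudocount of 0.1 Alox5 was called lower in IR_d5 (-1.82, limma adjusted p = 0.0153). The Avil call is lost without IR_d5 replicate 2 (1.23, limma adjusted p = 0.0758) or Normal replicate 1 (1.21, limma adjusted p = 0.0871). The Sh2d6 call in IR_d3 is lost without Normal replicate 2 (-1.31, limma adjusted p = 0.056) or with quantile normalization (-1.05), and that in IR_d5 without any 1 of the 4 libraries (-1.38 to -1.74) or with quantile normalization (-1.18).

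With the inhibitors at day 3, Trpm5 rose by 1.09 ± 0.28 and Avil by 1.48 ± 0.38 over IR_d3 (limma adjusted p of 0.00575 and 0.00479), 2 of 4 members where 31.6% of all genes were called higher. In the crypt fit Trpm5 reached the minimum only through the IR+VE groups of days 1, 2 and 3, with means of 2.67, 1.73 and 2.02 TPM. A gene that passes so had to differ, so its call is not read as support. Genes of other cells were called higher too, 3 of 7 goblet (Muc2 at 2.56), 2 of 8 enteroendocrine (Chgb at 2.85), 3 of 9 enterocyte (Cdh1 at 2.19), 1 of 4 stem cell, 0 of 4 Paneth cell and 2 of 7 leukocyte genes tested (Ptprc at 1.05 and Laptm5 at 1.43), and their part in the members' values was not tested. With quantile normalization the differences were 0.32 and 0.56 (limma adjusted p of 0.295 and 0.242). Both calls are also lost without IR_d3 replicate 1 (0.96 and 1.31, limma adjusted p of 0.0592 and 0.0556), and that of Trpm5 without IR+VE_d3 replicate 2 (0.99). At day 1, Sh2d6 was at 9.52 and 3.80 TPM with the inhibitors and at 2.46 and 0.0920 TPM without (1.87 ± 0.44, limma adjusted p = 0.173), where 0.00926% of all genes were called and 2 of 4 members and 13.2% of genes had an unadjusted p under 0.05. No member was called at days 2 (8.38% of all genes) and 5 (0.0185%), and at an unadjusted p under 0.05 there were 2 of 4 and 0 of 4 (36.7% and 1.65% of genes).

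Over the 4 days together, Trpm5 was higher with the inhibitors by 0.55 ± 0.14, Sh2d6 by 0.82 ± 0.22 and Avil by 0.55 ± 0.19 (limma adjusted p of 0.0056, 0.00737 and 0.0231), all under 2-fold beside a median of 0.36 for all genes. None was called where 3.55% of all genes were (at an unadjusted p under 0.05, 4 of 4 and 61%). The interaction of inhibitors and day was called for 0 of 4 members and for 1.75% of all genes (at an unadjusted p under 0.05, 3 of 4 and 28.1%). Pou2f3 was at 0.359 TPM or below in every crypt library and Il25 was listed at 0 in 13 of 18.

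**Figure D5:**
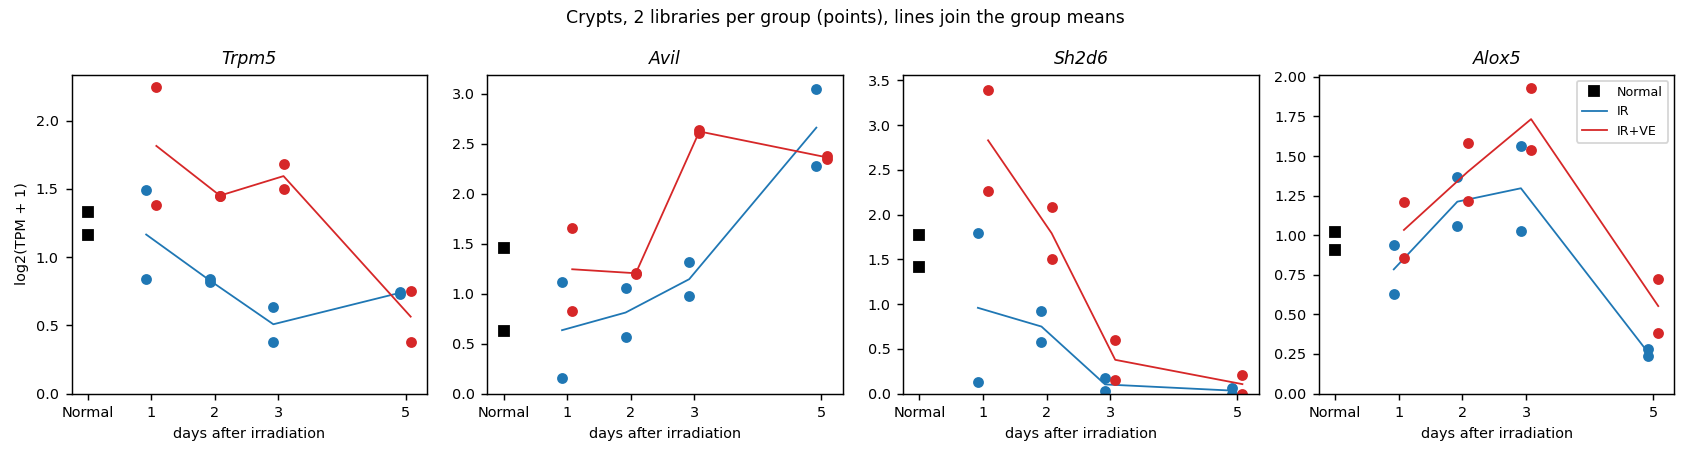
Trpm5, Avil, Sh2d6 and Alox5 in crypts on the log2(TPM + 1) scale by days after irradiation, 2 libraries per group as points with lines through the means (squares, Normal). The IR+VE mean lies above the IR mean at days 1 to 3 for Trpm5 and Avil, and the Sh2d6 means decrease from day 1 to day 5 in both.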

How the data were processed

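Reads of RNA from organoids and crypts, made into libraries with a kit that does not keep the strand, were trimmed with Trimmomatic 0.39 and mapped to mm10 with STAR 2.7.3a, and features were counted with featureCounts, per the labels. The authors deposited 1 table of 29579 genes and 67 libraries in TPM. How counts were turned into TPM is not given in the sources used here, and depth is unknown. Here values were transformed to log2(TPM + 1) and compared in R 4.3.3 with limma 3.58.1 (eBayes with trend and robust) over genes averaging 1 TPM or more in the compared libraries. The crypt groups entered 1 fit, with the minimum taken over all 18 libraries. A call needs a Benjamini-Hochberg adjusted p under 0.05 and 2-fold. Members below the minimum were put to two-sided exact permutation tests. Members and lists were chosen with earlier results of these data known. Named genes were the members, those most like them, some cell type markers and, per comparison, the called genes of the other lists with the largest changes. Same-numbered libraries deviate together in 8C-VE against ENR (7 pairs, correlations 0.313 to 0.642), 8C-E against 8C-VE (7 pairs, 0.647 to 0.775), 8C-V against 8C-VE (6 pairs, 0.69 to 0.774) and 8C-V against 8C (6 pairs, 0.106 to 0.598). Coordinates and promoters are from GENCODE and RefSeq (GRCm38). The fit was tested on simulated data. Values of 2 of the genes that this rule selects are not reported here.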

Additional observations from a re-analysis of the deposited data

Results flagged for a closer look

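In groups of 4 to 10 libraries, the 10 genes gave 49 sets of values with a spread, and in 8 of them 1 library stood far from the others, where chance gives about 1 in 20 sets of normally distributed values. TPM near 0 are skewed, so the number of such sets is not read against that share. In ENR replicate 7, Gfi1b was at 1.24 TPM (next library 0.340 TPM) and Ptgs1 at 2.34 TPM (next 0.516 TPM). In 8C replicate 7, Gfi1b was at 0.826 TPM (next 0.276 TPM). In 8C-VE replicate 7, Ptgs1 was at 2.33 TPM (next 0.509 TPM) and Il17rb at 5.46 TPM (next 2.79 TPM), and in 8C-E replicate 7 Il17rb was at 8.12 TPM (next 3.28 TPM). In 8C replicate 2, Alox5 was at 0.598 TPM (next 0.223 TPM) and Il25 at 0.231 TPM where the other 6 libraries are listed at 0.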

How the results depend on the processing

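Alternatives were a pseudocount of 0.1, no minimum level, no minimum fold, quantile normalization, removal of mitochondrial genes, all media in 1 fit, subsets of replicate numbers (numbers 1 to 6 were added after seeing the data), the replicate block and leaving out each replicate. Of 2462 alternative values, 2250 kept their direction and side of the threshold, 76 reversed, and the others moved, gained or lost a call. The count of members called moved as follows, and the cause was not tested. For 8C against 8C-VE (0), it was 2 with pseudocount 0.1, with no minimum fold, with quantile normalization and in numbers 4 to 6, 1 with no minimum level, without mitochondrial genes and with all media, and 0 to 2 leaving out a replicate. For 8C-E against 8C-VE (2) it was 3 with pseudocount 0.1 and with no minimum fold, 0 in numbers 1 to 3, 1 in numbers 4 to 6 and in numbers 1 to 6, and 0 to 2 leaving out a replicate, for 8C-V against 8C-VE (0) 3 in numbers 4 to 6, and for 8C-V against 8C (3) 0 in numbers 1 to 3. Leaving out a replicate gave 2 to 3 for 8C-V against 8C, 8C against ENR (3) and 8C-Pex (3), and 8C against ENR gave 2 in numbers 1 to 3 and in numbers 1 to 6. With the replicate block, where numbers are only shared, ENR+VE gave 1 (0), 8C-GSK3i 2 (0), 8C-Pex 4 (3) and the medium interaction 2 (0). ENR+VE also gave 1 with no minimum fold and in numbers 1 to 3, 8C-GSK3i 2 and 8C-EGF 1 against numbers 1 to 3 of 8C, and 8C-Pex 6 with no minimum level, 5 in numbers 1 to 3, 4 with all media and 2 with pseudocount 0.1 and in numbers 1 to 6. The block changed no other call. In crypts, IR_d3 (1) gave 2 with pseudocount 0.1 and no minimum fold (Sh2d6 and Trpm5), 2 with quantile normalization (Alox5 and Avil, without Sh2d6), and 0 to 1 leaving out a replicate. IR_d5 (2) gave 3 with pseudocount 0.1, 1 with quantile normalization and 0 to 1 leaving out a replicate. IR+VE_d3 (2) gave 0 with quantile normalization and 0 to 2 leaving out a replicate. The 4 days together (0) gave 1 with pseudocount 0.1, 3 with no minimum fold and 0 to 1 leaving out a replicate, and IR_d1, IR+VE_d1 and the day interaction (0) gave 0 to 1. The directions that reversed are all of members not called, and the cause was not tested. With quantile normalization the reversed values were, for Il17rb, -0.33 in 8C against ENR, -0.10 in 8C against 8C-VE, -0.078 in 8C-V against 8C-VE, 0.026 in 8C-V against 8C, 0.12 in 8C-E against 8C, -0.23 in ENR+VE and -0.035 in the interaction of VPA and EPZ6438. For Pou2f3 they were -0.23 in 8C against ENR and 0.089 in 8C-E against 8C, for Sh2d6 -0.15 in 8C-V against 8C-VE, 0.0093 in the interaction, -0.051 in IR+VE_d3 and -0.0407 in IR+VE_d5, for Trpm5 -0.39 in ENR+VE, 0.16 in IR_d1, 0.072 in IR_d2 and 0.13 in IR_d3, for Avil 0.30 in 8C-E against 8C and 0.25 in IR_d2, and for Alox5 -0.29 in IR+VE_d2, -0.54 in IR+VE_d3 and -0.19 over the 4 days. In numbers 1 to 3, Il17rb was at -0.40 in 8C against ENR, -0.0091 in 8C against 8C-VE, 0.14 in 8C-V against 8C and 0.11 in 8C-E against 8C, Trpm5 at -0.11 in 8C-E against 8C and Avil at 0.22 in ENR+VE. In numbers 4 to 6, Trpm5 was at 0.015 in 8C-VE against ENR, Avil at 0.23 and Pou2f3 at 0.090 in 8C-E against 8C, and Il17rb at -0.13 in 8C-bFGF, whose 3 libraries were set against numbers 4 to 6 of 8C. In numbers 1 to 6, Dclk1 was at 0.10 in ENR+VE and Il17rb at -0.050 in the interaction. With the replicate block, Avil was at 0.22 in ENR+VE and Il17rb at -0.13 in the interaction, which was -0.00573 with pseudocount 0.1. Without mitochondrial genes, Trpm5 was at 0.090 in IR_d1. Leaving out a replicate, the ranges that crossed 0 were, in 8C-E against 8C, -0.096 to 0.065 for Avil, -0.22 to 0.067 for Pou2f3 and -0.00699 to 0.13 for Trpm5, with Sh2d6 at -0.0975 to 0.30 in 8C-V against 8C-VE, Dclk1 at -0.14 to 0.10 in ENR+VE, and Il17rb at -0.11 to 0.16 in 8C-bFGF and -0.13 to 0.20 in the interaction. In crypts they were -0.89 to 0.074 for Avil, -1.47 to 0.19 for Sh2d6 and -0.41 to 0.25 for Trpm5 in IR_d1, -0.65 to 0.18 in IR_d2 and -0.31 to 0.51 in IR_d3 for Avil, and -0.68 to 0.090 for Avil, -0.033 to 0.18 for Sh2d6 and -0.36 to 0.0095 for Trpm5 in IR+VE_d5. TPM keeps no depth, so what depth limits is unknown.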
